A study of Homo sapiens and Mus musculus with 36 samples.

Results

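C24, named in the series' description as the inhibitor of the EZH2 enzyme that matches the degrader MS7126, was compared with the solvent DMSO in HepG2, a human liver cancer cell line. The comparison held 4 of the 36 RNA sequencing libraries of the series, 2 from cells given 5 uM C24 for 48 h and 2 from cells given DMSO for the same time. Its genes were the 14613 of 18609 whose mean over these libraries reached 10 normalized counts in the authors' deposited table. MS7126, a PROTAC, and its analogs MS7126N1 and MS7126N2, which are named as controls without PROTAC activity, were given to HepG2 at the same dose and time and were compared by the authors with the same DMSO libraries. Huh7 cells, another liver cancer line, labelled shEZH2 (knock-down of EZH2) and shControl, 2 libraries each, are set beside C24 further below. The series also holds HepG2 libraries labelled shEZH2 and shControl, which were not used here. Whether the 2 libraries within each group are from different cultures is not stated in the labels. The p-values therefore reflect only how far these libraries spread, which may be technical. HepG2 is a single line, and a change in the make-up of the culture cannot be told apart from a change per cell in such bulk RNA.

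EZH2 is the enzyme of Polycomb repressive complex PRC2, which methylates histone H3 at genes that are kept silent. Inhibitors of the enzyme lower this mark without removing the protein, while a degrader removes the protein as well. In hepatocytes cholesterol is made by the mevalonate pathway, whose genes are switched on together by SREBP2, a membrane-bound transcription factor that is released when sterols are scarce. NRF2 is a transcription factor of the antioxidant response, and AP-1 factors, YAP and SRF drive genes that respond to growth factors, adhesion and the actin cytoskeleton.

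For C24, values per library were not used here, and each gene is described by the mean normalized count, log2 fold change (C24 over DMSO) and standard error (SE) of the authors' deposited table. The level of a gene with C24 and with DMSO, in normalized counts, was rebuilt from that mean and fold change and carries no error of its own; the depth of each library is not given in that table. The means in the authors' deposited table summed to 16686567 normalized counts, and the 13 protein-coding genes of the mitochondrial genome had log2 fold changes from -0.88 to -0.64 with SEs from 0.43 to 0.61. On the log2 scale these SEs lay 1.98 to 2.49 above the running median of the SEs of genes with like mean counts. None of the 13 was called (adjusted p from 0.293 to 0.549 in the authors' deposited table), and genes of that genome held 25.1% of the rebuilt level with C24 and 32.8% with DMSO. Liver markers were present, with albumin (ALB) at a mean of 53317 and apolipoprotein A1 (APOA1) at 103286 normalized counts in the authors' deposited table. Most markers of endothelial and blood cells were low or not listed, with CDH5 at a mean of 5.34, CLDN5 at 4.35, CD3E at 5.62, PTPRC at 29.7 and PECAM1 at 34.6 in the authors' deposited table. The exception was lysozyme (LYZ), at a mean of 9714 with a log2 change of 0.13 (SE 0.10, adjusted p = 0.555) in the authors' deposited table. In what follows a value with an SE is a log2 fold change over DMSO, and a value given with C24 and with DMSO but no SE is a level in normalized counts.

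The authors' deposited table gave an adjusted p to 8146 of the 14613 genes, those with a mean of at least 167.8, and left 6467 without one. At an adjusted p under 0.05, 572 genes were called, 7.02% of those tested. They split into 245 higher (3.01%) and 327 lower (4.01%) with C24. Most changes were small. The median log2 fold change in the authors' deposited table was 0.56 among the genes called higher and -0.64 among those called lower, and 19 higher and 40 lower genes changed by at least 2-fold. The plot of fold change against mean count shows the called genes on both sides of 0.

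**Figure D1:**
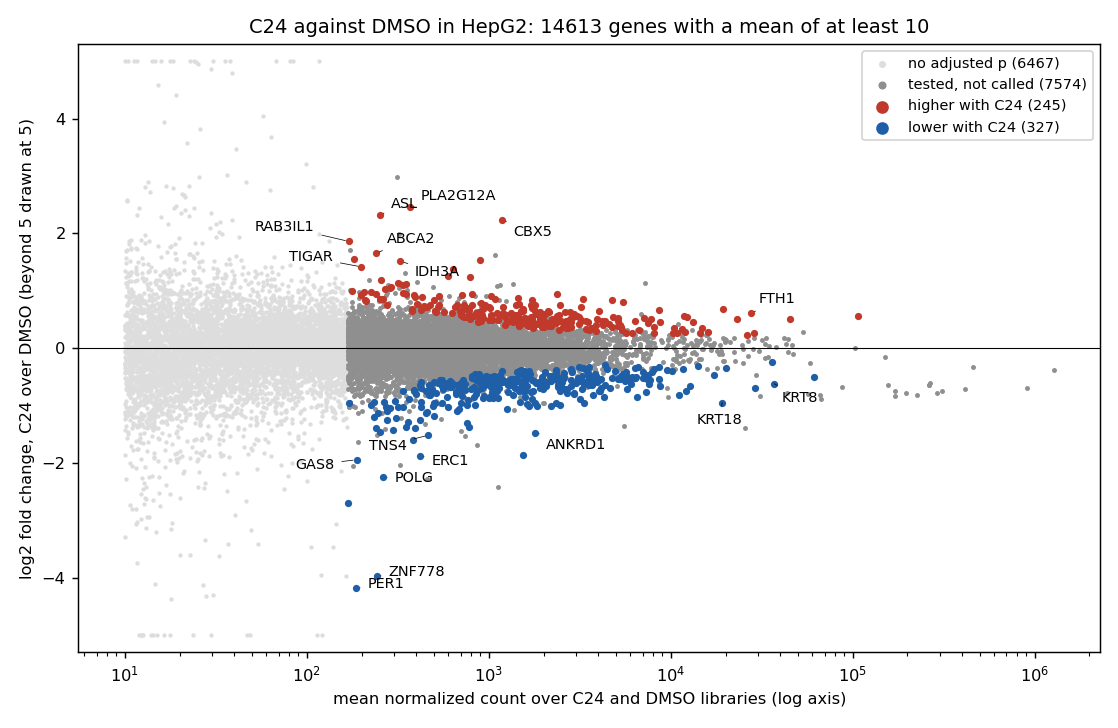
Log2 fold change (C24 over DMSO, vertical axis) against mean normalized count (horizontal log axis) for the 14613 genes in the authors' deposited table, 1 point a gene, with values beyond 5 drawn at 5. The 245 genes called higher are red, the 327 called lower blue, the 7574 tested but not called dark grey and the 6467 without an adjusted p light grey; PER1 and ZNF778 lie far below the rest of the called genes.

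The transcript of the enzyme itself, EZH2 (chromosome 7, 148807383 to 148884321, minus strand in GRCh38), stood at 227 with C24 and 276 with DMSO, a log2 change of -0.28 (SE 0.26, adjusted p = 0.659) in the authors' deposited table. The compound acts on the protein, so this level is no check of the treatment. None of the 11 tested PRC2 subunits was called in the authors' deposited table, with values between -0.44 and 0.48. Of all tested genes 7.02% were called in either direction, so 0 calls do not set a list of 11 apart. EED, the subunit that reads the mark, had a mean of 111 and no adjusted p. Genes described elsewhere as PRC2-repressed gave no call either, 0 of 11 tested, with a median log2 fold change of -0.04 in the authors' deposited table. Among them CDH1, which codes for E-cadherin, stood at 0.59 (SE 0.29, adjusted p = 0.231), CDKN1A at 0.35 (SE 0.16, adjusted p = 0.179) and CDKN2A at 0.20 (SE 0.24, adjusted p = 0.761) in the authors' deposited table. CDH1 was the highest of the 11, only 5 of the 11 were positive, and the lowest stood at -0.19. At an unadjusted p under 0.05 the authors' test gave 1 higher and 2 lower among the subunits and 2 higher and 0 lower among the PRC2-repressed genes. Over all 8146 tested genes it gave 673 higher and 828 lower. Of the 35 genes in the second list 20 had a mean of at least 10, and 9 of those had no adjusted p in the authors' deposited table.

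The largest called increases belonged to genes of varied function. PLA2G12A (chromosome 4, 109709989 to 109730077, minus strand), a secreted phospholipase A2, stood at 626 with C24 and 115 with DMSO, a log2 change of 2.45 (SE 0.30, adjusted p = 1.26e-13) in the authors' deposited table. ASL (chromosome 7, 66075798 to 66093558, plus strand), the argininosuccinate lyase of the urea cycle, stood at 421 with C24 and 84.3 with DMSO, a log2 change of 2.32 (SE 0.27, adjusted p = 8.89e-15) in the authors' deposited table. CBX5 (chromosome 12, 54230940 to 54280133, minus strand), which codes for the heterochromatin protein HP1 alpha, stood at 1963 with C24 and 417 with DMSO, a log2 change of 2.23 (SE 0.20, adjusted p = 8.88e-25) in the authors' deposited table. Behind these 3 came RAB3IL1 at 1.86 (SE 0.60), the transporter ABCA2 at 1.65 (SE 0.37) and the autophagy gene WDR45 at 1.55 (SE 0.34) in the authors' deposited table. ARL2BP at 1.54 (SE 0.31), the citrate cycle enzyme IDH3A at 1.51 (SE 0.52), the p53 target TIGAR at 1.41 (SE 0.40) and the phospholipase C gene PLCD3 at 1.23 (SE 0.23) were close behind in the authors' deposited table. The calls of RAB3IL1 and IDH3A, whose SEs were above 0.5, were lost when adjustment ran over all genes at or above a mean of 10.

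The values of the first 3 with the other compounds, set against the same DMSO libraries, were not alike. In the authors' deposited tables PLA2G12A stood at 3.50 (SE 0.30) with MS7126, 2.31 (SE 0.37) with MS7126N1 and 0.64 (SE 0.35) with MS7126N2. ASL stood at 2.91 (SE 0.46) with MS7126, 1.91 (SE 0.58) with MS7126N1 and 0.30 (SE 0.35) with MS7126N2 in the authors' deposited tables. CBX5 stood at -0.62 (SE 0.18) with MS7126, 2.58 (SE 0.42) with MS7126N1 and 0.08 (SE 0.18) with MS7126N2 in the authors' deposited tables. Whether a trait of the shared DMSO libraries has a part in these values was not tested. The difference between C24 and MS7126N2 was 2.02 for ASL (95% interval 1.15 to 2.88, adjusted p = 0.00252) and 2.16 for CBX5 (95% interval 1.63 to 2.68, adjusted p = 1.1e-11). Neither PLA2G12A nor ASL was called different between C24 and MS7126 or between C24 and MS7126N1.

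The lowest called gene was PER1 (chromosome 17, 8140472 to 8156506, minus strand), a repressor of the circadian clock that glucocorticoids induce. It stood at 19.5 with C24 and 355 with DMSO, a log2 change of -4.19 (SE 0.40, adjusted p = 3.1e-22) in the authors' deposited table. PER1 was low with the other compounds too, at -3.83 (SE 0.47) with MS7126, -4.93 (SE 0.42) with MS7126N1 and -4.43 (SE 0.43) with MS7126N2 in the authors' deposited tables, and C24 minus MS7126N1 was 0.75 (95% interval -0.40 to 1.89). All 4 values are set against 1 pair of DMSO libraries, whose part was not tested. CLOCK, of the activating arm of the clock, stood at -0.66 (SE 0.20, adjusted p = 0.0235) in the authors' deposited table, and these were the 2 members called of 11 tested clock genes. Of all tested genes 4.01% were lower.

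ZNF778 (chromosome 16, 89217703 to 89237071, plus strand), a zinc finger gene, stood at 29.2 with C24 and 459 with DMSO, a log2 change of -3.98 (SE 0.36, adjusted p = 8.88e-25) in the authors' deposited table. Here the other compounds did not give the same value: the authors' deposited tables had -0.27 (SE 0.52) with MS7126, 0.33 (SE 0.63) with MS7126N1 and -1.03 (SE 0.52) with MS7126N2. The difference of C24 was called against each of the 3. It was -3.71 (95% interval -4.95 to -2.47, adjusted p = 4.56e-07) from MS7126, -4.31 (95% interval -5.72 to -2.89, adjusted p = 1.19e-05) from MS7126N1 and -2.95 (95% interval -4.19 to -1.71, adjusted p = 0.0018) from MS7126N2. Next in order came the long non-coding RNA RP11-159D12.5 at -2.69 (SE 0.40), the mitochondrial DNA polymerase POLG at -2.25 (SE 0.40) and GAS8 at -1.95 (SE 0.39) in the authors' deposited table. They were followed by ERC1 at -1.88 (SE 0.23), PTCD3, which acts in mitochondrial translation, at -1.87 (SE 0.29) and CAPN12 at -1.61 (SE 0.33) in the authors' deposited table. TNS4 at -1.52 (SE 0.24), ANKRD1 at -1.48 (SE 0.15) and ZBTB7B at -1.44 (SE 0.26) closed the group in the authors' deposited table. POLG was lower with MS7126 as well, at -4.23 (SE 0.48), and ERC1 with MS7126N2, at -2.01 (SE 0.31), in the authors' deposited tables.

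Genes of cholesterol synthesis rose together. Of 21 tested members 14 were higher and 0 lower with C24 in the authors' deposited table, beside 3.01% of all tested genes higher, and the median log2 fold change was 0.45 over the members and 0.00 over all genes tested. Rebuilt levels were higher with C24 than with DMSO in 21 of the 22 members, and their sum with C24 was 142% of that with DMSO. The rise was spread along the pathway, with 5 of 8 tested members called in the mevalonate arm, 3 of 3 in the squalene branch and 6 of 10 after lanosterol in the authors' deposited table. The list was known from earlier results of these data to be higher with C24, so its direction is given as a description.

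In the mevalonate arm, which builds isoprenoid units from acetyl-CoA, the highest member was MVD (chromosome 16, 88651935 to 88663161, minus strand), mevalonate diphosphate decarboxylase. It stood at 2221 with C24 and 1247 with DMSO, a log2 change of 0.83 (SE 0.20, adjusted p = 0.00124) in the authors' deposited table. The isomerase IDI1 stood at 1152 with C24 and 665 with DMSO, 0.79 (SE 0.17, adjusted p = 0.000434), in the authors' deposited table. ACAT2, the first thiolase of the pathway, stood at 3088 with C24 and 1845 with DMSO, 0.74 (SE 0.12, adjusted p = 9.67e-08), in the authors' deposited table. These enzymes sit at both ends of the arm. HMGCS1, HMG-CoA synthase, stood at 1186 with C24 and 715 with DMSO, 0.73 (SE 0.17, adjusted p = 0.000745), in the authors' deposited table. The kinase MVK stood at 884 with C24 and 558 with DMSO, 0.66 (SE 0.17, adjusted p = 0.00525), in the authors' deposited table. These 5 made up the calls of the arm, and 1 member not described by name was not called. FDPS, farnesyl diphosphate synthase, missed the threshold at 0.31 (SE 0.11, adjusted p = 0.0745) and PMVK had no adjusted p at 0.34 (SE 0.33) in the authors' deposited table. GGPS1, which leads away to geranylgeranyl diphosphate, stood at 0.03 (SE 0.24, adjusted p = 0.974) in the authors' deposited table.

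In the squalene branch all 3 enzymes rose. Squalene synthase FDFT1 stood at 4938 with C24 and 3172 with DMSO, 0.64 (SE 0.10, adjusted p = 5.17e-08), in the authors' deposited table. The epoxidase SQLE stood at 2260.0 with C24 and 1662 with DMSO, 0.44 (SE 0.12, adjusted p = 0.00581), in the authors' deposited table. Lanosterol synthase LSS stood at 1444 with C24 and 948 with DMSO, 0.61 (SE 0.16, adjusted p = 0.00421), in the authors' deposited table. After lanosterol the highest were MSMO1 (chromosome 4, 165327623 to 165343160, plus strand) and NSDHL (chromosome X, 152830967 to 152869729, plus strand), which act one after the other in removing methyl groups. The authors' deposited table gave MSMO1 1856 with C24 and 1084 with DMSO, 0.77 (SE 0.16, adjusted p = 0.000112). In the authors' deposited table NSDHL had 814 with C24 and 493 with DMSO, 0.72 (SE 0.17, adjusted p = 0.00162). TM7SF2 at 0.41 (SE 0.13, adjusted p = 0.0244) and DHCR7 at 0.45 (SE 0.10, adjusted p = 0.00092), which reduce double bonds of the sterol, were called too in the authors' deposited table. The lanosterol demethylase CYP51A1 was called as well, at 0.40 (SE 0.14, adjusted p = 0.048) in the authors' deposited table. It was lost with recentred fold changes and with adjustment over all genes at or above a mean of 10. EBP at 0.41 (SE 0.15, adjusted p = 0.0704), SC5D at 0.36 (SE 0.19, adjusted p = 0.31) and HSD17B7 at 0.66 (SE 0.39, adjusted p = 0.374) were positive but not called in the authors' deposited table. LBR, a nuclear envelope protein with sterol reductase activity, stood at -0.11 (SE 0.20, adjusted p = 0.857) in the authors' deposited table, the one negative value of the list.

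The upstream sequence of 3 of these enzymes, 1 from the mevalonate arm and 2 from after lanosterol, and of SREBF2, the gene of SREBP2 itself, is shown because the members rose together. Each runs 5′ to 3′ from 240 bases before the RefSeq start (table of GRCh38.p14) to the base before the GENCODE gene record (in SREBF2 a few bases short of it), in lower case, with CCAAT boxes in capitals. The box is the letters CCAAT, or ATTGG where it lies on the other strand, a motif that the factor NF-Y binds beside SREBP. In SREBF2 the letters TCACNCCAC, a form of the sterol response element searched on both strands, are in capitals too. MVD is at chr16:88663162-88663331, minus strand, MSMO1 at chr4:165327429-165327622, plus strand, NSDHL at chrX:152830823-152830966, plus strand and SREBF2 at chr22:41832865-41833075, plus strand. The stretches of MVD and SREBF2 also lie in non-coding genes of the opposite strand.
MVD: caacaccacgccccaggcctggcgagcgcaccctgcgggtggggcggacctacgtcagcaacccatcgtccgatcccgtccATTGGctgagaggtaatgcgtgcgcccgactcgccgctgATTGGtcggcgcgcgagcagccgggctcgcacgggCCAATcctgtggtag
MSMO1: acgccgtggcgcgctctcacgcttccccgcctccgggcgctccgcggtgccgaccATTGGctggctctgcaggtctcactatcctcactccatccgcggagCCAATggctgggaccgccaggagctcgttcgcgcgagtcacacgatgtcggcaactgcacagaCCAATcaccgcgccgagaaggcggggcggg
NSDHL: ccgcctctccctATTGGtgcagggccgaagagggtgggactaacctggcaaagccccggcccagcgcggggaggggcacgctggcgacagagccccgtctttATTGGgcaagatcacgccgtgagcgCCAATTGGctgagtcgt
SREBF2: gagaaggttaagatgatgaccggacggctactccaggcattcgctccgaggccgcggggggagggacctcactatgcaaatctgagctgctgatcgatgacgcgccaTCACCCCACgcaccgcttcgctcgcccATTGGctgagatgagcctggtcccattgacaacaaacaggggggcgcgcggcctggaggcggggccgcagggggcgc
There were 3 boxes in the stretch of MVD, 3 in MSMO1, 4 in NSDHL, of which the last 2 overlap by their ends, and 1 in SREBF2. In the 300 bases around each start, 17 of the 22 list members matched the promoter table and 14 of them (82.4%) held the box at a listed start, against 39.7% of all 27305 genes in the table and 43.7% of the 6305 tested genes that matched. At least 2 boxes were found in 10 of the 17 members (58.8%), against 12.9% of all genes and 16.8% of the tested genes that matched. The sterol response element in this form was in 0 of the 17 members, and SREBF2 held 1. It was in 1.39% of all genes and 1.55% of the tested genes that matched. A match of letters is not a binding site, and no match says only that these letters are not in the window.

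Among the genes that regulate SREBP or move sterols, 6 of 13 tested were higher and 0 lower in the authors' deposited table, at a median of 0.37. The share of all tested genes called higher was 3.01%. SREBF2 (chromosome 22, 41833079 to 41907308, plus strand) stood at 1863 with C24 and 1294 with DMSO, 0.53 (SE 0.13, adjusted p = 0.00173), in the authors' deposited table. SREBF1, the gene of the factor that favours fatty acid synthesis, stood at 1101 with C24 and 766 with DMSO, 0.52 (SE 0.17, adjusted p = 0.033), in the authors' deposited table. The escort protein gene SCAP, at 0.02 (SE 0.16, adjusted p = 0.975), and the protease gene MBTPS1, at 0.09 (SE 0.14, adjusted p = 0.836), were near 0 in the authors' deposited table. INSIG1 was too low for an adjusted p, with a mean of 25.5. Of genes of uptake and transport, NPC1L1 stood at 0.86 (SE 0.26, adjusted p = 0.02), the lysosomal cholesterol carrier NPC2 at 0.47 (SE 0.14, adjusted p = 0.0141) and TMEM97 at 0.37 (SE 0.11, adjusted p = 0.0213) in the authors' deposited table.

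Fatty acid synthesis had 4 of 13 tested members higher and 0 lower in the authors' deposited table, at a median of 0.35. For this and the lists that follow, 3.01% of all tested genes were higher. FADS2, a fatty acid desaturase, stood at 1492 with C24 and 905 with DMSO, 0.72 (SE 0.14, adjusted p = 2.03e-05), in the authors' deposited table. The stearoyl-CoA desaturase SCD stood at 14635 with C24 and 10009 with DMSO, 0.55 (SE 0.09, adjusted p = 4.31e-07), in the authors' deposited table. The acetyl-CoA synthetase ACSS2 stood at 0.56 (SE 0.16, adjusted p = 0.0108) and fatty acid synthase FASN at 0.56 (SE 0.15, adjusted p = 0.00914) in the authors' deposited table. ACACA, the carboxylase before FASN, stood at 0.61 (SE 0.28, adjusted p = 0.199) and ACLY at 0.20 (SE 0.14, adjusted p = 0.488) in the authors' deposited table, neither called. In triglyceride synthesis and storage DGAT1 was the 1 call of 13 tested, at 0.59 (SE 0.13, adjusted p = 0.000612) in the authors' deposited table. Among genes of cholesterol efflux and breakdown CYP27A1, which makes oxysterols and bile acids, was the 1 call of 7, at 0.50 (SE 0.11, adjusted p = 0.00032) in the authors' deposited table.

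The antioxidant genes controlled by NRF2 were higher in part. Of 27 tested members 10 were higher and 0 lower in the authors' deposited table, at a median of 0.27, beside 3.01% of all tested genes higher. The hydroxysteroid dehydrogenase AKR1C1 (chromosome 10, 4963253 to 4983283, plus strand) stood at 6070.1 with C24 and 3393 with DMSO, 0.84 (SE 0.09, adjusted p = 3.75e-16), in the authors' deposited table. Its close relative AKR1C2 stood at 5970.0 with C24 and 4299.7 with DMSO, 0.47 (SE 0.11, adjusted p = 0.00127), in the authors' deposited table. Their sequences are similar enough that reads may be split between them. Both subunits of the iron store ferritin rose. FTH1 stood at 33431 with C24 and 22015 with DMSO, 0.60 (SE 0.08, adjusted p = 5.39e-11), in the authors' deposited table. FTL stood at 127144 with C24 and 86585 with DMSO, 0.55 (SE 0.08, adjusted p = 1.7e-09), in the authors' deposited table. FTLP3, a processed copy of FTL that may share its reads, was at 0.86 (SE 0.14) in the authors' deposited table. Haem oxygenase HMOX1 stood at 0.54 (SE 0.16, adjusted p = 0.0139) and the carbonyl reductase CBR1 at 0.65 (SE 0.21, adjusted p = 0.0337) in the authors' deposited table. The pentose phosphate enzyme PGD, which makes NADPH, rose, at 0.37 (SE 0.12, adjusted p = 0.0248) in the authors' deposited table. The peroxidase GPX2 at 0.31 (SE 0.10, adjusted p = 0.0372) and the quinone reductase NQO1 at 0.27 (SE 0.09, adjusted p = 0.0372) rose too in the authors' deposited table. With adjustment over all genes at or above a mean of 10, 7 of the 10 were called, and NQO1 was not. Glutathione synthesis and thioredoxin genes were not among the calls. GCLM stood at -0.26 (SE 0.21, adjusted p = 0.604) and SLC7A11, the cystine carrier, at -0.05 (SE 0.26, adjusted p = 0.959) in the authors' deposited table. TXNRD1 stood at 0.23 (SE 0.15, adjusted p = 0.439) and SRXN1 at 0.30 (SE 0.18, adjusted p = 0.407) in the authors' deposited table.

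Genes of xenobiotic metabolism that PXR or AHR induce had 3 of 5 tested members higher in the authors' deposited table, beside 3.01% of all tested genes. Of the 3, 1 was NQO1, which the NRF2 list holds too. The glutathione transferase GSTA1, which has close copies, stood at 478 with C24 and 220.4 with DMSO, 1.12 (SE 0.22, adjusted p = 7.04e-05), in the authors' deposited table. The sulfotransferase SULT2A1 stood at 1889.7 with C24 and 1177 with DMSO, 0.68 (SE 0.15, adjusted p = 0.000658), in the authors' deposited table. Lysosome and autophagy genes had 5 of 25 higher and 0 lower, at a median of 0.30 in the authors' deposited table. These were the protease CTSD at 0.71 (SE 0.17, adjusted p = 0.00125), the acid lipase LIPA at 0.60 (SE 0.19, adjusted p = 0.0269) and NPC2, named above, in the authors' deposited table. The sialidase NEU1 at 0.53 (SE 0.11, adjusted p = 0.000178) and the autophagy receptor SQSTM1 at 0.60 (SE 0.18, adjusted p = 0.0215) were the others in the authors' deposited table.

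Some genes that mark the hepatocyte were called. Of 20 tested secreted and enzyme markers 3 were higher and 1 lower in the authors' deposited table, beside 3.01% and 4.01% of all tested genes. The iron carrier transferrin (TF) stood at 23965 with C24 and 14917 with DMSO, 0.68 (SE 0.10, adjusted p = 2.86e-08), in the authors' deposited table. The protease inhibitor SERPINA1 stood at 52803 with C24 and 37172 with DMSO, 0.51 (SE 0.10, adjusted p = 0.000141), in the authors' deposited table. AMBP stood at 0.46 (SE 0.09, adjusted p = 0.000131) and haptoglobin (HP), which binds free haemoglobin, at -0.43 (SE 0.11, adjusted p = 0.00698) in the authors' deposited table. ALB, the most abundant plasma protein, stood at 0.27 (SE 0.10, adjusted p = 0.0712) in the authors' deposited table and was not called. The apolipoprotein genes gave 0 calls of 11 (2 higher at an unadjusted p under 0.05 by the authors' test), with APOA1 at 0.00 (SE 0.11, adjusted p = 0.994) and APOB at 0.02 (SE 0.09, adjusted p = 0.948) in the authors' deposited table. At that unadjusted p 673 of all 8146 tested genes were higher. Of 14 tested liver transcription factors, CEBPA at 0.59 (SE 0.18, adjusted p = 0.0244) and HNF4A at 0.46 (SE 0.13, adjusted p = 0.00979) were higher in the authors' deposited table. The coagulation inhibitors SERPINC1, antithrombin, at 0.75 (SE 0.17, adjusted p = 0.00095) and SERPIND1 at 0.55 (SE 0.11, adjusted p = 7.04e-05) rose in the authors' deposited table. The complement genes C4A at 0.62 (SE 0.19, adjusted p = 0.024) and C4B at -0.72 (SE 0.21, adjusted p = 0.0141) were called in opposite directions in the authors' deposited table. C4A and C4B are near-identical copies, and how reads were shared between them makes both values uncertain. In the urea cycle ASS1, which makes the substrate of ASL, stood at 0.65 (SE 0.17, adjusted p = 0.00525) in the authors' deposited table. In glucose metabolism PCK2 stood at 0.48 (SE 0.11, adjusted p = 0.00139) and the phosphofructokinase PFKL at 0.94 (SE 0.25, adjusted p = 0.00653), in the authors' deposited table.

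On the lower side the immediate early genes, which serum and growth factors switch on within minutes, had 4 of 8 tested members lower (beside 4.01% of all tested genes) and 0 higher in the authors' deposited table, at a median of -0.56. The transcription factor KLF6 stood at 1212 with C24 and 2249 with DMSO, -0.89 (SE 0.19, adjusted p = 0.000178), in the authors' deposited table. CYR61, a secreted matricellular protein, stood at 258 with C24 and 476 with DMSO, -0.88 (SE 0.22, adjusted p = 0.00334), in the authors' deposited table. IER3 stood at -0.59 (SE 0.14, adjusted p = 0.00105) and JUN, a subunit of AP-1, at -0.53 (SE 0.17, adjusted p = 0.036) in the authors' deposited table. The call of JUN was lost with adjustment over all genes at or above a mean of 10. CTGF, a relative of CYR61, stood at -0.14 (SE 0.23, adjusted p = 0.849) and MYC at 0.17 (SE 0.27, adjusted p = 0.846) in the authors' deposited table, neither called. Others were too low for an adjusted p. FOS, EGR1 and ATF3 had means of 23.7, 76.0 and 106 and no adjusted p in the authors' deposited table.

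ANKRD1 (chromosome 10, 90912096 to 90921276, minus strand), a nuclear co-factor known as a YAP target, stood at 955 with C24 and 2655 with DMSO, a log2 change of -1.48 (SE 0.15, adjusted p = 1.29e-19) in the authors' deposited table. TNS4 (chromosome 17, 40475828 to 40501597, minus strand), a focal adhesion protein, stood at 241 with C24 and 691 with DMSO, -1.52 (SE 0.24, adjusted p = 1.06e-07) in the authors' deposited table. AREG (chromosome 4, 74445134 to 74455009, plus strand), the EGF receptor ligand amphiregulin, stood at 436 with C24 and 1078 with DMSO, -1.31 (SE 0.23, adjusted p = 1.81e-06) in the authors' deposited table. The SEs of these 3 fold changes, 0.15 to 0.24, were small beside their size.

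Further lower calls lay in several lists, beside 4.01% of all tested genes called lower in the authors' deposited table. The metallothionein genes MT1E at -0.72 (SE 0.16, adjusted p = 0.000745) and MT2A at -0.64 (SE 0.13, adjusted p = 0.000146) were 2 of 11 tested metal-response genes in the authors' deposited table, and this family shares sequence between members. Of 27 proteasome subunits 4 were lower and 0 higher in the authors' deposited table, with PSMD4 at -0.57 (SE 0.15) and PSMC1 at -0.57 (SE 0.15). The other 2 calls, PSMB3 at -0.35 (SE 0.11) and PSMD1 at -0.52 (SE 0.17) in the authors' deposited table, were lost with adjustment over all genes at or above a mean of 10. Among 26 chromatin writers and erasers the demethylase KDM5A was the 1 call, at -0.69 (SE 0.21, adjusted p = 0.0233) in the authors' deposited table. Among 18 genes of the unfolded protein response the chaperone HSP90B1 was the 1 call, at -0.47 (SE 0.13, adjusted p = 0.00702), in the authors' deposited table. The mitotic motor CENPE stood at 1231 with C24 and 2465 with DMSO and was lower (adjusted p = 2.45e-07), the 1 call of 31 mitosis genes in the authors' deposited table. Thymidylate synthase TYMS was called higher instead, at 0.52 (SE 0.16, adjusted p = 0.0193), the 1 call of 33 DNA replication genes, in the authors' deposited table. That count lay near the 3.01% of all tested genes called higher. COL1A1, which is also a fibroblast marker, stood at -0.77 (SE 0.24, adjusted p = 0.023) in the authors' deposited table. The other fibroblast marker that was tested, the smooth muscle actin ACTA2, stood at 0.40 (SE 0.18, adjusted p = 0.176), and COL1A2 had a mean of 12.3 in the authors' deposited table.

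Programmes that respond to stress were called in part or not at all. Of 28 tested ATF4 targets 3 were higher and 1 lower in the authors' deposited table, beside 3.01% and 4.01% of all tested genes. The mTOR inhibitor DDIT4 stood at 1.09 (SE 0.25, adjusted p = 0.00105) and the proline synthesis enzyme PYCR1 at 0.56 (SE 0.12, adjusted p = 0.000434) in the authors' deposited table. TRIB3 stood at 0.56 (SE 0.12, adjusted p = 0.000612) and the amino acid transporter SLC38A2 at -0.48 (SE 0.14, adjusted p = 0.0191) in the authors' deposited table. Of 21 tested p53 targets TIGAR and FDXR, at 0.43 (SE 0.12, adjusted p = 0.0108), were called higher in the authors' deposited table. Hypoxia genes gave 0 calls of 11 by the authors' test, with 1 higher and 1 lower at an unadjusted p under 0.05, and genes of MHC class I and interferon 0 of 13, with 3 higher and 1 lower. The unadjusted counts over all 8146 tested genes were 673 higher and 828 lower. Nuclear genes of the respiratory chain had 6 of 35 higher and 2 lower in the authors' deposited table. The higher ones included the ATP synthase genes ATP5F1 at 0.51 (SE 0.12) and ATP5A1 at 0.39 (SE 0.09), SDHC at 0.47 (SE 0.14) and CYC1 at 0.45 (SE 0.12) in the authors' deposited table. The lower ones were the cytochrome oxidase genes COX6B1 at -1.07 (SE 0.24) and COX4I1 at -0.33 (SE 0.11) in the authors' deposited table. With adjustment over all genes at or above a mean of 10, 1 of these 2 lower calls was left.

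C24 and MS7126 were next set against each other at 5 uM and 48 h, 1 of 3 pairs of compounds compared. The difference of their log2 fold changes (C24 minus MS7126) was tested against the root of the summed squared SEs with a normal test. At a p adjusted within the pair it was called positive in 535 of 14335 genes (3.73%) and negative in 363 (2.53%), and at a p adjusted over the 3 pairs in 411 and 275. Most genes of cholesterol synthesis lay on opposite sides of 0, above it with C24 and below it with MS7126, and 19 of 22 members were called higher with C24, at a median difference of 1.98 beside -0.03 over all genes. The largest called difference among them was ACAT2 with 2.66 (95% interval 2.27 to 3.05, adjusted p = 1.97e-36), the fold changes in the authors' deposited tables being 0.74 (SE 0.12) with C24 and -1.92 (SE 0.16) with MS7126. MSMO1 differed by 2.63 (95% interval 2.11 to 3.15) and SREBF2 by 1.53 (95% interval 1.12 to 1.94).

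**Figure D2:**
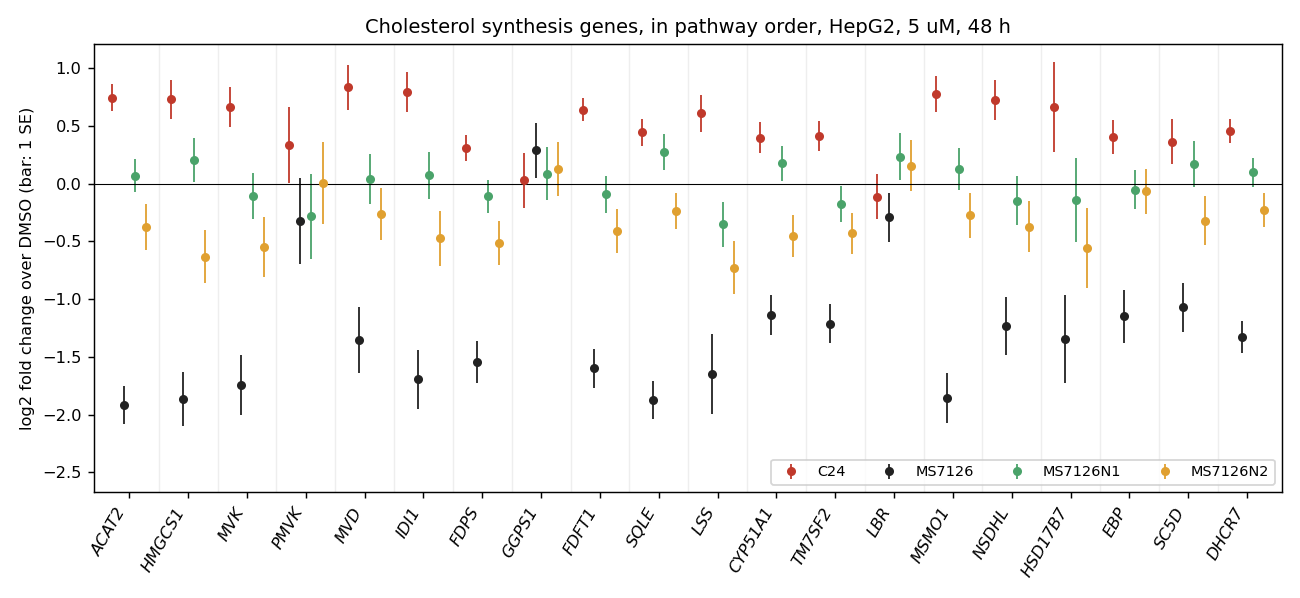
Log2 fold change over DMSO (vertical axis, bar 1 SE) of 20 cholesterol synthesis genes in pathway order, from the authors' deposited tables, with C24 (red), MS7126 (black), MS7126N1 (green) and MS7126N2 (orange) side by side. C24 lies above 0 in all but LBR, MS7126 lies below 0 in all but GGPS1, and the analogs lie between them for most genes.

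Beyond the sterol genes, the compounds parted at genes of the liver. Acute-phase genes were higher with C24 than with MS7126 in 9 of 13 members and hepatocyte markers in 11 of 21, with 0 lower in either list. For haptoglobin the authors' deposited tables gave -0.43 (SE 0.11) with C24 and -3.62 (SE 0.16) with MS7126, a difference of 3.19 (95% interval 2.81 to 3.58, adjusted p = 2.93e-54). The serum amyloid gene SAA4 differed by 3.65 (95% interval 2.55 to 4.76), SULT2A1 by 3.43 (95% interval 2.91 to 3.96) and GSTA1 by 3.74 (95% interval 2.72 to 4.76). APOA1, at 0.00 (SE 0.11) with C24 and -1.87 (SE 0.12) with MS7126 in the authors' deposited tables, differed by 1.87 (95% interval 1.55 to 2.19). Apolipoprotein genes were higher with C24 than with MS7126 in 7 of 13 and coagulation and complement genes in 10 of 24. DNA replication genes were so in 13 of 39 and mitosis genes in 11 of 31, with 0 lower in any of these lists. The share of all genes called higher was 3.73%. Over DMSO itself the calls of C24 in these lists were counted in the authors' deposited table. Of all tested genes 3.01% were higher and 4.01% lower. Apolipoproteins gave 0 of 11 tested, and coagulation and complement 3 higher and 1 lower of 16. Hepatocyte markers gave 3 higher and 1 lower of 20. DNA replication gave 1 higher of 33, mitosis 1 lower of 31 and acute-phase genes 1 lower of 12. The counts of DNA replication and mitosis lay near the shares of all tested genes.

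The growth-response genes parted the other way. Immediate early genes were lower with C24 than with MS7126 in 10 of 14 members, at a median difference of -1.51, and 0 were higher. The share of all genes called lower was 2.53%. ANKRD1 stood at -1.48 (SE 0.15) with C24 and 0.89 (SE 0.16) with MS7126 in the authors' deposited tables, a difference of -2.37 (95% interval -2.79 to -1.94, adjusted p = 8.84e-25). AREG stood at -1.31 (SE 0.23) with C24 and 1.25 (SE 0.22) with MS7126 in the authors' deposited tables, a difference of -2.56 (95% interval -3.18 to -1.94). The interleukin gene IL11, too low with C24 for an adjusted p, differed by -3.06 (95% interval -3.94 to -2.17). ATF4 targets were lower with C24 than with MS7126 in 24 of 34, and 0 were higher. Over DMSO itself C24 had 3 of 28 tested ATF4 targets higher and 1 lower in the authors' deposited table, at a median of 0.14. The shares of all tested genes over DMSO were 3.01% higher and 4.01% lower. IGFBP1, a secreted carrier of IGF, stood at 1.13 (SE 0.28) with C24 and 4.59 (SE 0.20) with MS7126 in the authors' deposited tables, and differed by -3.46 (95% interval -4.14 to -2.79). NRF2 targets split, with 11 of 29 lower and 2 higher with C24 than with MS7126. AKR1C1, 0.84 (SE 0.09) with C24 and 1.90 (SE 0.18) with MS7126 in the authors' deposited tables, was among the lower, at -1.06 (95% interval -1.46 to -0.65). HMOX1, 0.54 (SE 0.16) with C24 and -0.62 (SE 0.20) with MS7126 in the authors' deposited tables, was higher with C24 by 1.16 (95% interval 0.67 to 1.66). For the ferritin genes the interval of the difference held 0, -0.13 (95% interval -0.47 to 0.22) for FTH1 and 0.16 (95% interval -0.16 to 0.48) for FTL. For EZH2 mRNA it ran from -0.74 to 0.75.

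Against MS7126N1, called differences of C24 were few, 10 positive (0.0696%) and 16 negative (0.111%) of 14365 genes. Among the positive ones 3 were NRF2 targets, AKR1C1 at 0.90 (95% interval 0.55 to 1.24, adjusted p = 0.00068), FTH1 at 0.66 (95% interval 0.38 to 0.94, adjusted p = 0.00492) and FTL at 0.62 (95% interval 0.34 to 0.89, adjusted p = 0.01). With MS7126N1 itself AKR1C1 stood at -0.06 (SE 0.15), FTH1 at -0.05 (SE 0.12) and FTL at -0.06 (SE 0.11) over DMSO in the authors' deposited table. Glutamine synthetase GLUL, at 0.81 (SE 0.11, adjusted p = 7.46e-11) with C24 in the authors' deposited table, differed by 0.94 (95% interval 0.58 to 1.29, adjusted p = 0.000506). PLCD3 differed by 1.57 (95% interval 0.95 to 2.19, adjusted p = 0.00111) and MBD5 by 3.67 (95% interval 2.31 to 5.02, adjusted p = 0.000362). MBD5 itself stood at 0.10 (SE 0.56) with C24 and -3.56 (SE 0.41) with MS7126N1 in the authors' deposited tables. The negative ones included ZNF778, ANKRD1 at -1.50 (95% interval -1.97 to -1.04, adjusted p = 1.26e-06), AREG at -1.67 (95% interval -2.30 to -1.03, adjusted p = 0.000506) and TNS4 at -1.42 (95% interval -2.08 to -0.77, adjusted p = 0.0198). CENPE at -1.48 (95% interval -2.17 to -0.80, adjusted p = 0.02) and the acetyltransferase CREBBP at -1.81 (95% interval -2.59 to -1.04, adjusted p = 0.00506) were negative too. RAB12 had the lowest difference from MS7126N1, but with an SE of 1.50 on a log2 fold change of -10.50 with C24 in the authors' deposited table its size is uncertain.

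No cholesterol synthesis gene was called different between C24 and MS7126N1, 0 of 22, at a median difference of 0.56. Of all 14365 genes 0.0696% were called higher and 0.111% lower. At an unadjusted p under 0.05 in this normal test 14 of the 22 were higher and 0 lower. Over all 14365 genes these unadjusted counts were 300 and 508. A p that misses the threshold does not show that C24 and MS7126N1 act alike. The difference was 0.73 (95% interval 0.36 to 1.10) for FDFT1, 0.96 (95% interval 0.47 to 1.45) for LSS and 0.68 (95% interval 0.31 to 1.04) for ACAT2, and 0.17 (95% interval -0.21 to 0.55) for SQLE. With adjustment over the 3 pairs together 3 members were called higher with C24. When both means had to reach 100, 2 were, and with the covariance through the shared DMSO libraries taken off 9 were.

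Against MS7126N2, 47 genes differed upwards (0.328%) and 18 downwards (0.126%) of 14311. Among these were 12 of 22 cholesterol synthesis members, called higher with C24, with 0 lower and a median difference of 0.85. HMGCS1 stood at 0.73 (SE 0.17) with C24 and -0.63 (SE 0.23) with MS7126N2 in the authors' deposited tables, a difference of 1.36 (95% interval 0.80 to 1.92, adjusted p = 0.00118). LSS differed by 1.33 (95% interval 0.79 to 1.88, adjusted p = 0.00118), ACAT2 by 1.12 (95% interval 0.67 to 1.57, adjusted p = 0.00112) and SREBF2 by 0.82 (95% interval 0.41 to 1.23, adjusted p = 0.0236). ACSS2, SCD and FADS2 of fatty acid synthesis were higher with C24 too, by 1.17 (95% interval 0.66 to 1.69), 0.80 (95% interval 0.49 to 1.11) and 1.04 (95% interval 0.58 to 1.49). In the lower direction ASNS, asparagine synthetase, differed by -1.53 (95% interval -2.08 to -0.99, adjusted p = 5.38e-05) and ANKRD1 by -1.02 (95% interval -1.49 to -0.54, adjusted p = 0.011). NFATC2IP differed by -2.18 (95% interval -2.76 to -1.60, adjusted p = 1.36e-09). NRF2 targets gave 0 calls of 29, with 3 higher and 1 lower at an unadjusted p under 0.05 in the normal test and AKR1C1 at 0.15 (95% interval -0.27 to 0.57). The unadjusted counts over all 14311 genes were 239 higher and 198 lower.

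**Figure D3:**
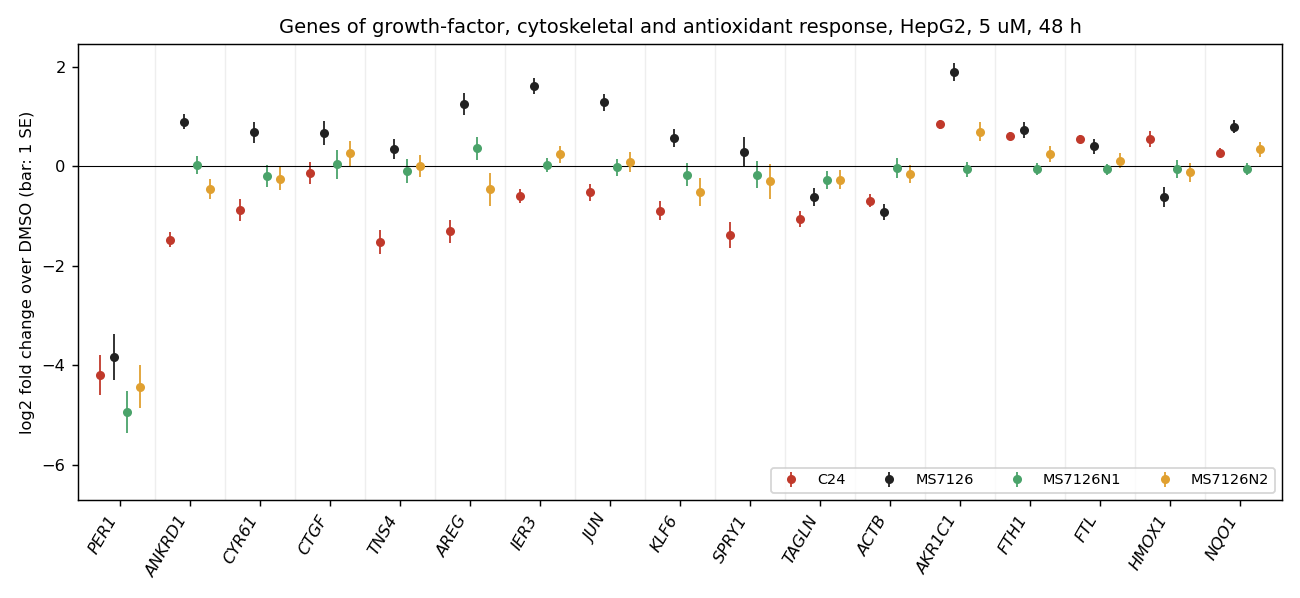
Log2 fold change over DMSO (vertical axis, bar 1 SE) of 17 genes of growth-factor, cytoskeletal and antioxidant response, from the authors' deposited tables, with C24 (red), MS7126 (black), MS7126N1 (green) and MS7126N2 (orange) side by side. PER1 is low with all 4 compounds; ANKRD1 and AREG are low with C24 and high with MS7126, and FTH1 and FTL are higher with C24 while MS7126N1 lies near 0.

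Knock-down of EZH2 in Huh7, another liver cancer line, shares no library with C24 and was set beside it for the 7823 genes tested in both of the authors' deposited tables. Of 234 genes called higher with C24, 69 (29.5%) were lower and 30 (12.8%) higher in shEZH2 cells against shControl cells, beside 17.0% and 13.3% of all 7823 genes. These 69 were 5.19% of the genes called lower in shEZH2 cells. Of 305 genes called lower with C24, 49 (16.1%) were lower and 52 (17.0%) higher in shEZH2 cells. Of the 21 cholesterol synthesis genes tested in both, 20 were lower and 0 higher with shEZH2 in the authors' deposited table. MVD stood at 0.83 (SE 0.20) with C24 in HepG2 and -1.29 (SE 0.06) with shEZH2 in Huh7 in the authors' deposited tables. ACSS2 stood at 0.56 (SE 0.16) with C24 and -2.44 (SE 0.15) with shEZH2 in the authors' deposited tables. TAGLN, an actin-binding protein, was lower in both of the authors' deposited tables, at -1.06 (SE 0.17) with C24 and -1.37 (SE 0.15) with shEZH2. The cell line and the way of acting on EZH2 both differ between the comparisons and cannot be told apart.

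Called genes differed in length. In the GENCODE annotation of GRCh38, the median summed exon length was 2577 bases for 237 genes called higher with C24, 4464 bases for 308 called lower and 3607 bases for 7293 tested genes without a call. Tested genes were cut by exon length into 5 bins of near-equal size. The share called higher was 4.71% in the bin of the shortest genes (up to 2044 bases) and 1.21% in that of the longest (from 6263 bases). The share called lower was 3.18% in the shortest and 6.38% in the longest, and the median log2 fold change was 0.05 in the shortest and -0.10 in the longest. GC content of the longest transcript had a median of 54.1% among genes called higher, 46.2% among those called lower and 48.5% among the rest. The lists differ in the same measure. The median exon length was 2970 bases over cholesterol synthesis and 2698 over NRF2 targets, against 3595 over all tested genes. Other lists with calls lay elsewhere, with 4378 bases over fatty acid synthesis and 4494 over SREBP regulators and sterol uptake, where calls were higher, and 2670 over immediate early genes, where calls were lower. Of the 14 called cholesterol genes 7 lay in the 2 bins of shortest genes and 3 in the 2 of longest. What part length, GC content or the mitochondrial share has in the calls was not tested.

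**Figure D4:**
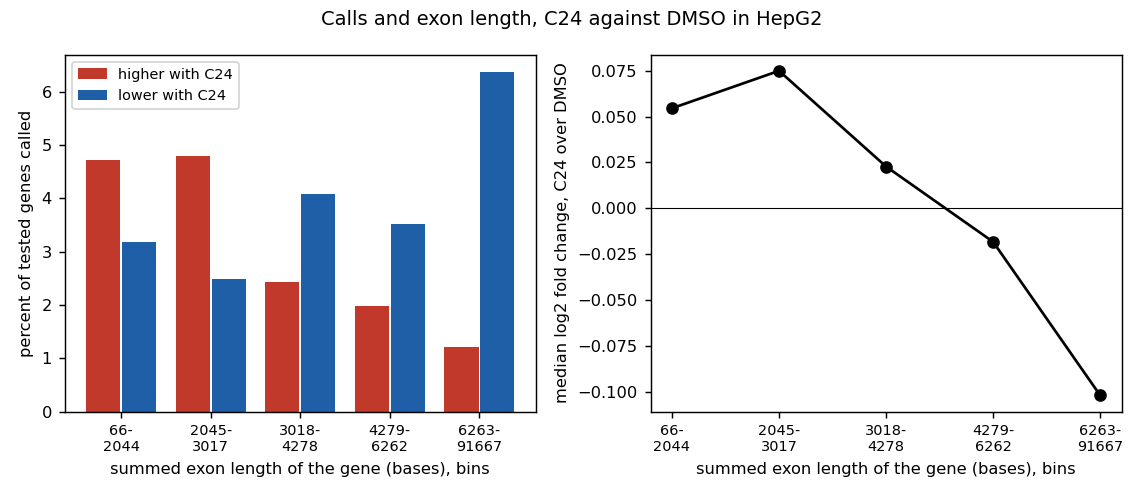
Left, the percent of tested genes called higher (red bars) and lower (blue bars) with C24, over 5 bins of genes by summed exon length in bases (horizontal axis); right, the median log2 fold change (C24 over DMSO) in each bin. The share called higher is 4.71% in the shortest bin and 1.21% in the longest, and the share called lower is 3.18% and 6.38%.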

How the data were processed

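RNA of HepG2 cells was sequenced after 48 h with 5 uM C24 or with DMSO, 2 libraries a group. Per the submitters' processing notes, STAR 2.4.2, Salmon and GRCh38 were used; the labels name 2 library kits without saying which library had which. The deposited table gives for each gene a mean normalized count (a signal, on the authors' scale), a log2 fold change, its SE, the ratio of both as a score, and a p-value with its adjusted p-value. How the strand was counted is not given in the sources used here. The authors' columns are those that DESeq2 writes, per the file headers. The authors' adjusted p-values equal a Benjamini-Hochberg adjustment over the 8146 genes that have one. The sign was checked on the DMSO levels rebuilt from the 4 compounds' tables: they differed with an interquartile range of 0.05 to 0.06 on the log2 scale, against 0.37 to 0.40 with the sign of C24 turned.

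Computed here (Python 3.11.15, pandas 2.3.3, scipy 1.17.1) were the list counts and medians, the levels, and the differences between compounds, which sum the squared SEs as if the DMSO libraries were not shared; this script was tested on simulated data. A gene was a member at a mean of at least 10 and called at an adjusted p under 0.05. The genes just outside and just inside the minimum were RP11-403P17.3 at a mean of 9.996 and RP11-97C16.1 at 10.002. The genes named were the PRC2 subunits, the cholesterol synthesis list, the 12 highest and 12 lowest called fold changes at a mean of at least 100, up to 4 called members of each list and the 5 highest and 5 lowest called differences of each pair; others were chosen after their values were seen, and some that the rule names are not reported here. Members and lists were chosen with earlier results of these data known.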

Additional observations from a re-analysis of the deposited data

How the results depend on the processing

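No paired analysis was possible because the deposited table of C24 carries no values per library, and for the same reason no library could be left out. At an adjusted p under 0.01 the counts of genes higher and lower were 111 and 161, and at a change of at least 2-fold 19 and 40. Adjustment over every gene with a p-value gave 196 and 263, over genes with a mean of at least 10 it gave 214 and 284, and recentred fold changes gave 235 and 341. Without genes of the mitochondrial genome, an alternative chosen after seeing the data, they were 243 and 321. Cholesterol synthesis had 13 members higher with adjustment over genes with a mean of at least 10 and with recentring. In settings added after seeing the data it had 12 at an adjusted p under 0.01 and 0 at a change of at least 2-fold. Of 105 named genes 11 lost their call with adjustment over genes with a mean of at least 10 and 2 with recentring, in no case with a change of sign. Allowing for the covariance of shared DMSO libraries raised the called differences of C24 to 1043 higher and 884 lower from MS7126, 107 and 232 from MS7126N1 and 100 and 65 from MS7126N2, since it narrows each error by construction. Adjustment over the 3 pairs together gave 31 and 58 against MS7126N1. No gene with a mean under 167.8 has an adjusted p from the authors. With adjustment over genes with a mean of at least 10, 47 of these were called, 20 higher and 27 lower, 19 of them with an SE over 1.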

Other observations

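Groups drawn up after values were seen added to the lower side, beside 4.01% of all tested genes called lower. Of 10 tested genes of a YAP and TAZ signature 3 were lower and 0 higher in the authors' deposited table, at a median of -0.47, ANKRD1 and CYR61 among them and PTPN14 at -0.61 (SE 0.20, adjusted p = 0.0308). Of 17 genes of SRF and the actin cytoskeleton 4 were lower, with transgelin TAGLN at -1.06 (SE 0.17, adjusted p = 6.09e-08), NEXN at -1.03 (SE 0.35, adjusted p = 0.0473), tropomyosin TPM1 at -0.88 (SE 0.14, adjusted p = 2.2e-07) and cytoplasmic actin ACTB at -0.69 (SE 0.13, adjusted p = 1.93e-05) in the authors' deposited table. The ERK feedback inhibitor SPRY1 stood at -1.38 (SE 0.26, adjusted p = 1.27e-05) in the authors' deposited table, at 0.29 (SE 0.29) with MS7126 and -0.17 (SE 0.27) with MS7126N1. Of 29 genes of SR splicing proteins and nuclear speckles 8 were lower and 0 higher, at a median of -0.31, with SRRM2 at -0.52 (SE 0.17, adjusted p = 0.0399), SON at -0.51 (SE 0.11, adjusted p = 0.000182) and LUC7L3 at -0.63 (SE 0.15, adjusted p = 0.00133) in the authors' deposited table. The median exon length of this list, 4028 bases, was above the 3595 of all tested genes, and its part in these calls was not tested. These lists were chosen on these values, so their counts are a description.

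Further single genes, chosen after their values were seen, were the keratins of simple epithelia, KRT18 at 13069.9 with C24 and 25279 with DMSO, -0.95 (SE 0.12, adjusted p = 2.73e-13), and KRT8 at 29211 with C24 and 44993 with DMSO, -0.62 (SE 0.10, adjusted p = 2.91e-08), in the authors' deposited table. They overlap on opposite strands of chromosome 12, and how the strand was counted is not given. KRT18 differed from MS7126N2 by -0.79 (95% interval -1.16 to -0.41, adjusted p = 0.0117). In the IGF system IGFBP1 was the 1 call of 8, at 1.13 (SE 0.28, adjusted p = 0.00254), in fatty acid oxidation HADHA the 1 of 12, at 0.36 (SE 0.12, adjusted p = 0.033), and among tubulins TUBA1B the 1 of 10, at 0.34 (SE 0.11, adjusted p = 0.0387), in the authors' deposited table. Of all tested genes 3.01% were called higher. In the BCL2 family BID stood at 0.68 (SE 0.23, adjusted p = 0.0496) and BCL2L1 at -0.29 (SE 0.09, adjusted p = 0.0313), and among cyclins and CDK inhibitors CDK4 stood at 0.47 (SE 0.12, adjusted p = 0.00284), in the authors' deposited table. HADHA, TUBA1B, BID and BCL2L1 lost their calls with adjustment over genes with a mean of at least 10. RAB12, with no adjusted p, stood at -10.50 (SE 1.50) with C24, -10.46 (SE 1.50) with MS7126, -0.07 (SE 0.27) with MS7126N1 and -0.97 (SE 3.20) with MS7126N2 in the authors' deposited tables. All 22 transfer RNA genes of the mitochondrial genome had negative log2 fold changes with C24 in the authors' deposited table. Of the 11 tested 5 were called lower, from -0.77 to -0.37, beside 4.01% of all tested genes called lower.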
